A study of Rattus norvegicus with 21 samples.

Results

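Expression of the 10 genes of the arginine and nitric oxide pathway was examined in pituitary adenomas of MENX rats and in wild-type rat pituitaries with the Affymetrix array Rat Gene 1.0 ST. The genes were Ass1, Asl, Nos1, Nos2, Nos3, Arg1, Arg2, Ddah1, Ddah2 and Odc1. They were taken from the array annotation by symbol, with the brightest probe set of each gene, and each had 1 probe set among the 29214 on the array, which name 14506 genes in all. Ass1, Nos1 and Arg1 entered the list with their higher level in these adenomas known, so their difference from wild type is given as a description and without a test. The MENX rats were homozygous for a mutation in Cdkn1b, the gene of the cell cycle inhibitor p27Kip1, and developed pituitary adenomas of gonadotroph origin. The wild-type rats had the same mixed background, spelled Sprague–Dawley white eye/Wistar–Kyoto in the labels. The 16 lesions carried 9 sample numbers, read here as 9 rats of 7 to 12 months of age (6 female and 3 male). The 5 wild-type pituitaries came from 5 rats of 6 months (2 female and 3 male). No mutant rat was as young as the wild-type rats, so genotype and age cannot be told apart. Macrodissected lesions were set against normal pituitary, in which gonadotrophs are a minority, and a change in the share of a cell type cannot be told apart from a change of RNA per cell.

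Nitric oxide is made from arginine by the nitric oxide synthases, with citrulline as the other product. Ass1 and Asl turn this citrulline back into arginine, Ass1 by joining it to aspartate and Asl by splitting the product, so the enzymes form a cycle that can feed a synthase with its substrate. Arginases compete for arginine and make ornithine, which Odc1 commits to the polyamines, and the Ddah enzymes break down methylated arginines that inhibit the synthases. In the pituitary, neuronal synthase is known from gonadotrophs and from nerve endings of the posterior lobe, and nitric oxide has been linked to the release of gonadotropins.

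Sequence at the start sites is shown for Nos1 and Ass1, the genes with the largest differences between adenomas and wild-type pituitaries. RefSeq promoter windows of the build GRCr8 (250 bases before and 50 bases after an annotated start) were found for 6 of the 10 genes, and none was used for Nos2, Arg1, Arg2 and Ddah2. The Nos1 window was chr12:44371788-44372087 on the minus strand and the Ass1 window chr3:35149480-35149779 on the plus strand. Both lay within the annotated span of their gene and not at its outer end. Each is printed from 5′ to 3′ with motif matches in capitals.
Nos1: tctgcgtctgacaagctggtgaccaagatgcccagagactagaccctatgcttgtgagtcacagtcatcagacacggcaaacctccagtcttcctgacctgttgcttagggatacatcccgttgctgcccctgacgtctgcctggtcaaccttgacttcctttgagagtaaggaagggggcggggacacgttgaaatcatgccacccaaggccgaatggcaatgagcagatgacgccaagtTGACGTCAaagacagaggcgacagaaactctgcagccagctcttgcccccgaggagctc
Ass1: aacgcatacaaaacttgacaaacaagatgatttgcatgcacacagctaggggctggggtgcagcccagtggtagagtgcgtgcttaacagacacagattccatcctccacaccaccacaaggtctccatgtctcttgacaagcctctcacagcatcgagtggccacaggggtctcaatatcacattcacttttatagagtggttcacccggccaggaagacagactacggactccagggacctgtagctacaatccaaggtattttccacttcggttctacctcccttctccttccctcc
The capitals in the Nos1 window mark the cyclic AMP response element TGACGTCA, a palindrome that reads the same on both strands, from 9 to 2 bases before the start. The 8 letters were found in 1.829% of all 33469 promoter windows. No other match of the 3 motifs searched on both strands was found in the 6 windows. The SF-1 site AAGGTCA occurred in 4.61% of all windows and the amino acid response element TGATGNAA in 3.98%. The Nos1 and Ass1 windows had a GC content of 55.3% and 51.0%. A match is a description of the letters and not evidence of a bound site.

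Ass1 (probe set 10835355, gene at chr3:35144765-35194632), argininosuccinate synthase and the rate-limiting step of arginine recycling, was high in every lesion. The deposited values are log2 intensities after RMA, so 1 unit is a doubling. On this scale the 16 lesions ran from 10.84 to 13.02 with a median of 12.62, against 8.42, 8.85, 8.57, 8.69 and 8.86 in wild-type pituitaries 1 to 5. The lowest lesion, from rat 4, still lay above the highest wild-type pituitary. With the lesions of a rat averaged, Ass1 was at 12.31 ± 0.70 in the adenomas (SD, n = 9) and at 8.68 ± 0.19 in wild type (SD, n = 5), 12.4-fold higher. The single rats lay between 4.48-fold and 20.1-fold above the wild-type mean, with rat 4 lowest and rat 1 highest. The standard deviation of Ass1 was 0.16 within rats (12 lesions of the 5 rats with several) and 0.70 between all 9 rats. The 2 values cover unlike sets, since the second also holds the rats with 1 lesion, rats 4 and 6 among them. The values by rat show rats 4 and 6 below all others. Asl (10757962, chr12:32295779-32313257), argininosuccinate lyase and the next enzyme of the cycle, did not pass the test. It was at 6.96 ± 0.090 in the adenomas and at 6.95 ± 0.23 in wild type, a log2 difference of 0.0094 with a standard error of 0.089 (adjusted p = 0.956 from limma). Here and below the test was limma's moderated linear model on 1 value per rat, with Benjamini-Hochberg adjustment over all 29214 probe sets and a threshold of 0.05. All 16 adenoma values of Asl, from 6.75 to 7.10, lay inside the wild-type range of 6.61 to 7.23.

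Nos1 (10762455, chr12:44276011-44456371), the neuronal nitric oxide synthase, had the largest difference of the 10 genes. The lesions ran from 10.77 to 12.09 with a median of 11.61, against 7.03, 6.85, 7.39, 6.88 and 7.13 in wild-type pituitaries 1 to 5. No lesion came within 3 log2 units of a wild-type pituitary. The means were 11.38 ± 0.40 in the adenomas and 7.06 ± 0.22 in wild type, 20.0-fold higher, and the single rats lay between 13.1-fold and 30.1-fold above wild type. Rat 8 was lowest and rat 5 highest, and all 3 lesions of rat 5, at 12.09, 11.98 and 11.83, exceeded every lesion of the other rats. The standard deviation was 0.14 within rats and 0.40 between rats, over the same sets of rats as for Ass1. The other two synthases did not pass the test. Nos2 (10736312), the inducible synthase of activated macrophages, was at 6.36 ± 0.088 in the adenomas and 6.47 ± 0.22 in wild type (log2 difference −0.11, standard error 0.085, adjusted p = 0.38 from limma). Nos3 (10860076), the endothelial synthase, was at 6.58 ± 0.079 in the adenomas and 6.60 ± 0.068 in wild type (log2 difference −0.017, standard error 0.060, adjusted p = 0.872 from limma). For both genes the adenoma and wild-type values overlapped. Nos2 and Nos3 lay near the array medians of 6.36 to 6.53, and whether they stood above background was not tested.

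**Figure D1:**
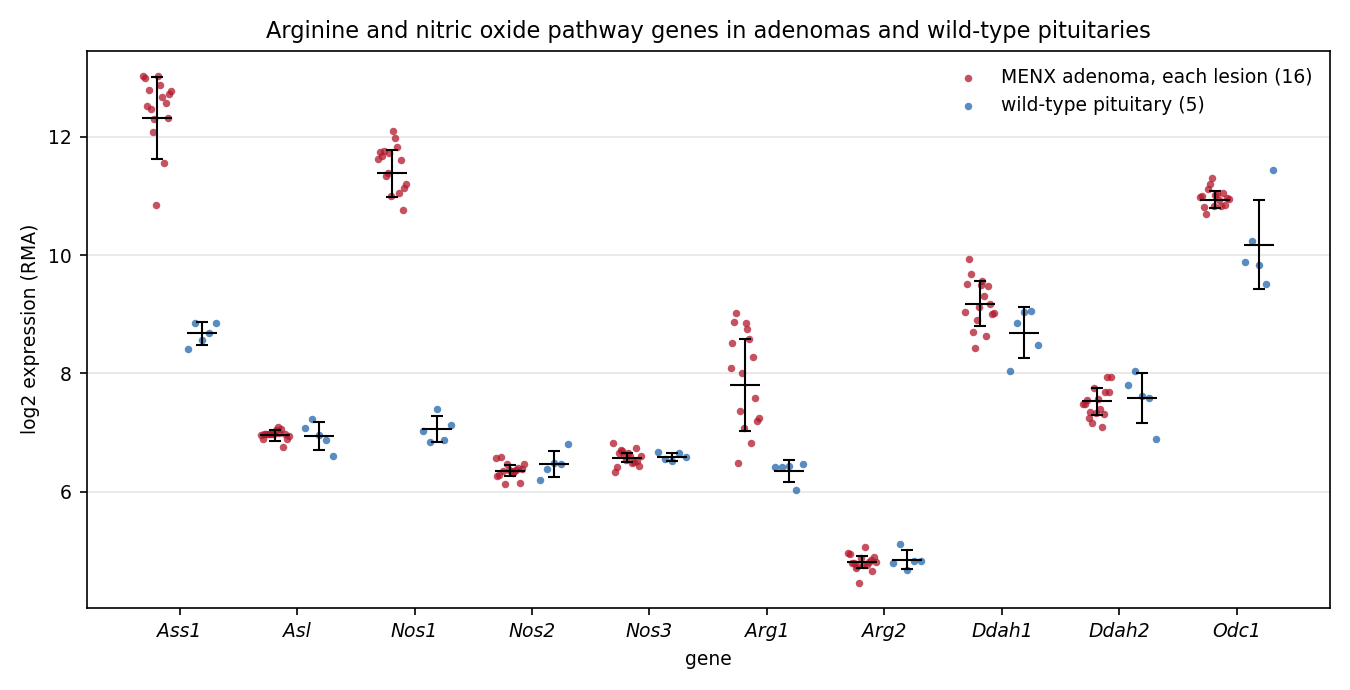
Log2 expression (RMA) of the 10 genes in each of 16 adenoma lesions (red, left of each pair) and 5 wild-type pituitaries (blue, right), with the mean and SD over 9 adenoma and 5 wild-type rats in black. Ass1, Nos1 and Arg1 do not overlap between the groups, Odc1 lies above 4 of the 5 wild-type pituitaries and below the other, and the remaining genes overlap.

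Arg1 (10702214, chr1:22295093-22307720), the cytosolic arginase of the liver urea cycle that is also made by some macrophages, was the third gene whose adenoma values all lay above wild type, though some only just. The lesions ran from 6.48 to 9.02 with a median of 8.05, against 6.42, 6.41, 6.44, 6.03 and 6.46 in wild-type pituitaries 1 to 5. The lowest lesion barely cleared the highest wild-type pituitary. The means were 7.81 ± 0.77 in the adenomas and 6.35 ± 0.18 in wild type, 2.73-fold higher. Single rats lay between 1.39-fold (rat 6) and 6.00-fold (rat 2) above wild type. Lesions of 1 gland could differ widely, since the 3 lesions of rat 3 stood at 6.48, 7.36 and 8.01, a range of 1.52, while those of rat 5 stood at 8.86, 8.75 and 8.58. The standard deviation within rats was 0.43. Arg2 (10885560), the mitochondrial arginase, was dim in both groups, at 4.81 ± 0.11 in the adenomas and 4.85 ± 0.16 in wild type (log2 difference −0.037, standard error 0.078, adjusted p = 0.779 from limma).

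Macrophage markers were also higher in the adenomas. Of 14 such markers, 9 were higher and none lower (adjusted p under 0.05 from limma), beside 8.49% of all probe sets higher and 9.06% lower. Many of all probe sets are dim. Among the 17594 with a mean of at least 6 in either group, 2630 were higher and 2292 lower. The summed linear level of the 14 markers was 1752 to 3622 in the adenoma rats and 1167 to 1933 in wild type. Over the 9 adenoma rats this summed level and Arg1 gave a Pearson r of 0.55 (exact two-sided permutation p = 0.116) and a Spearman rho of 0.45 (exact p = 0.23). Without rats 6 and 9, the farthest from the median of the summed marker level, r was 0.65 (exact p = 0.109). What part of the Arg1 level came from macrophages was not tested.

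Odc1 (10883785, chr6:46058439-46065148), ornithine decarboxylase and the entry enzyme of polyamine synthesis, was higher in the adenomas by the test, with 1 wild-type pituitary against the direction. The lesions lay close together, from 10.69 to 11.30 with a median of 10.97, against 9.88, 10.23, 9.83, 9.51 and 11.43 in wild-type pituitaries 1 to 5. Every lesion was above wild-type pituitaries 1 to 4 and below wild-type pituitary 5. The means were 10.94 ± 0.14 in the adenomas and 10.18 ± 0.75 in wild type, a log2 difference of 0.76 (standard error 0.226, adjusted p = 0.0309 from limma), 1.69-fold. Without wild-type pituitary 5 the difference was 1.07 (adjusted p = 9.42e-05). Leaving out adenoma rat 3 or one of the wild-type pituitaries 1, 3 and 4 ended the call (log2 difference 0.59 to 0.73), as did sex as a covariate (0.69, adjusted p = 0.0516).

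Ddah1 and Ddah2, which clear the methylated arginines that inhibit the synthases, did not pass the test. Ddah1 (10819644, chr2:237327812-237460624) ran from 8.43 to 9.93 in the lesions with a median of 9.15, against 8.04, 8.85, 9.03, 9.06 and 8.47 in wild-type pituitaries 1 to 5. The means were 9.18 ± 0.38 in the adenomas and 8.69 ± 0.43 in wild type (log2 difference 0.49, standard error 0.202, adjusted p = 0.106 from limma), and 6 of the 9 adenoma rats exceeded every wild-type pituitary. With sex as a covariate the difference was 0.60 (adjusted p = 0.041 from limma). Ddah2 (10831240) was at 7.53 ± 0.23 in the adenomas and 7.59 ± 0.42 in wild type (log2 difference −0.061, standard error 0.159, adjusted p = 0.828 from limma). Sample numbers began with 08 in 5 adenoma and 2 wild-type rats and with 09 in 4 adenoma and 3 wild-type rats, and the Ddah2 difference was −0.52 within prefix 08 (adjusted p = 0.04 from limma) and 0.32 within prefix 09 (adjusted p = 0.351 from limma). Over the whole list, 4 of the 10 genes were higher at an adjusted p under 0.05 and none was lower, where 8.49% of all probe sets were higher and 9.06% lower, 17.5% in either direction. Since 3 of these 4 genes had been chosen for their rise, nothing is read from this count. The groups did not overlap for these 3 genes, with the adenomas above, as for 2.66% of all probe sets, and no member lay wholly below wild type, as 2.16% of all probe sets did. The median log2 difference was 0.25 over the 10 genes and −0.035 over all probe sets.

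Whether Ass1 and Nos1 rise together across the adenomas was then asked over the 9 rats, a measure that does not use the wild-type values. The tumour share of the lesions was not measured, so its part in this relation cannot be told apart. Age also differed between the rats and is taken up below. The levels were positively related, but not past the threshold. Pearson's r was 0.64 (exact two-sided permutation p = 0.059, adjusted p = 0.413 over the 21 relations computed) and Spearman's rho was 0.72 (exact p = 0.0369, adjusted p = 0.258). Without rats 4 and 8, the farthest from the median of Nos1, r was 0.69 (exact p = 0.0833). Within sample number prefixes, taken as a possible batch, the deviations from the prefix means gave r = 0.75 (permutation p = 0.0197). Deviations from the mean of each sex gave 0.61 (permutation p = 0.0804). Both sets of deviations were permuted freely over the 9 rats, so these p-values are approximate and not tests within prefix or sex. Leaving out 1 rat at a time gave r from 0.59 to 0.78. The rats show where the order breaks. Rat 8 had the lowest Nos1 (10.77) with Ass1 at 12.32, while rats 4 and 6 had Nos1 at 10.99 and 11.04 with the lowest Ass1, at 10.84 and 11.55. Among the 12 lesions of the 5 rats with several lesions, Nos1 and Ass1 lay on the same side of the rat's own mean in 9, with a correlation of 0.35 given as a description. In the 3 rats with 2 lesions the 2 deviations mirror each other. The 12 lesions are thus not separate observations and leave 7 degrees of freedom.

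Arg1 had a higher correlation with Nos1 than Ass1 had, also without passing the adjusted threshold, and the difference between the correlations was not tested. Nos1 and Arg1 gave r = 0.80 (exact permutation p = 0.0145, adjusted p = 0.305) and rho = 0.80 (exact p = 0.0138, adjusted p = 0.258). Without rats 4 and 8, r was 0.91 (exact p = 0.00417). Among the 12 lesions from rats with several, the deviations of Nos1 and Arg1 from the rat's own mean had a correlation of 0.83, again with 7 degrees of freedom and as a description. The 3 lesions of rat 3 held the same order in both genes. Ass1 and Arg1 gave r = 0.68 (exact permutation p = 0.034, adjusted p = 0.357) and rho = 0.72 (exact p = 0.0369, adjusted p = 0.258), but r fell to 0.51 (exact p = 0.246) without rats 4 and 6. None of the 21 relations, which also held the other members, Cyp11a1 and Gnrhr, passed an adjusted p of 0.05.

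**Figure D2:**
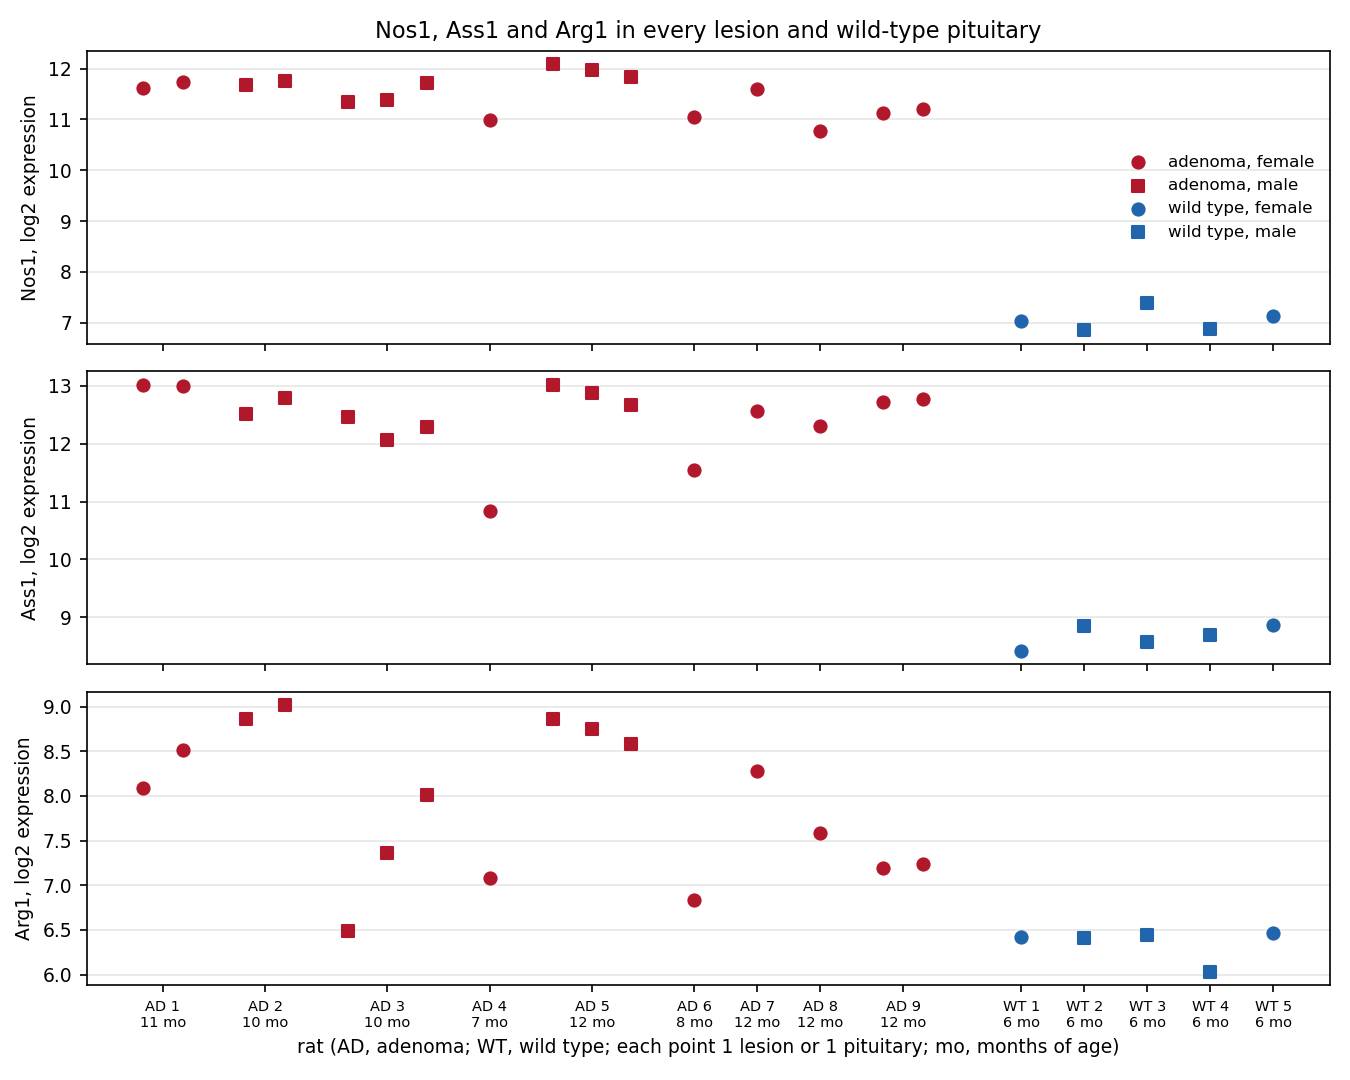
Log2 expression of Nos1, Ass1 and Arg1 in each adenoma lesion (red) and wild-type pituitary (blue), grouped by rat with the age in months, circles for females and squares for males. Lesions of 1 rat sit close together for Nos1 and Ass1, while the 3 Arg1 values of rat 3 spread from 6.48 to 8.01.

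**Figure D3:**
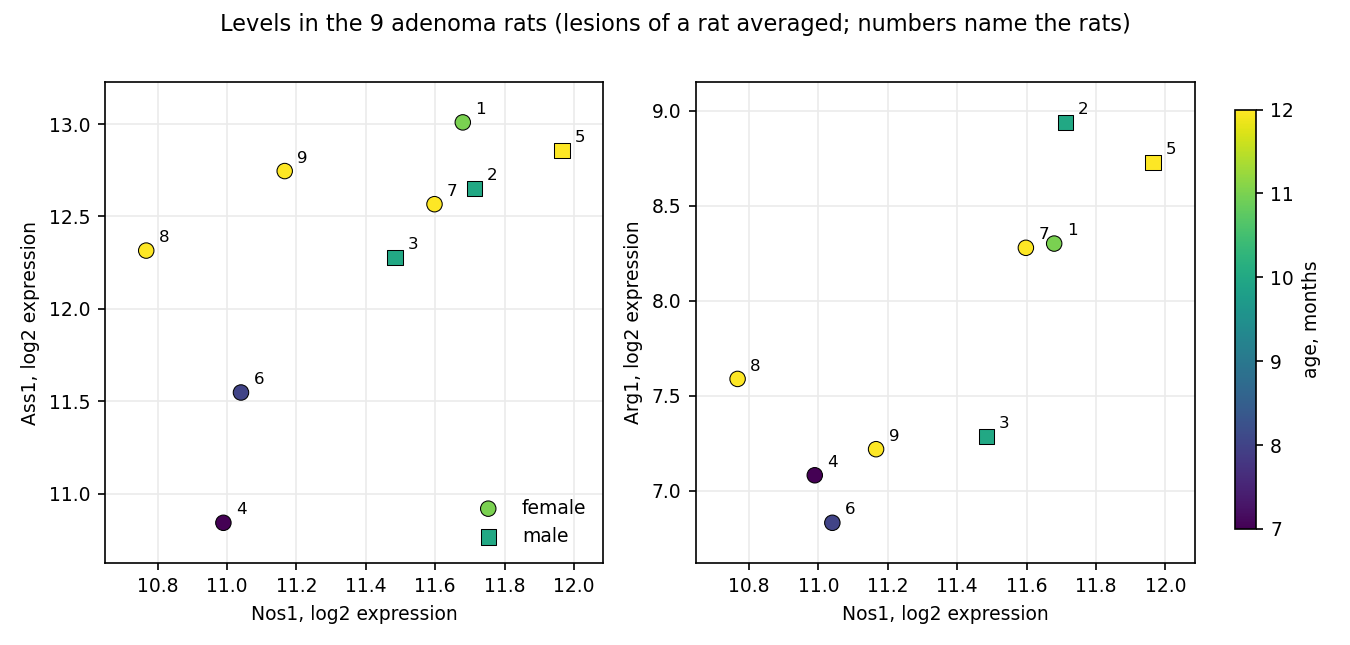
Log2 expression of Ass1 (left) and Arg1 (right) against Nos1 in the 9 adenoma rats, lesions of a rat averaged, with shade for age, circles for females and squares for males. Rats 4 and 6 lie low in Ass1 (r = 0.64 over all 9), and Arg1 is high in rats 1, 2, 5 and 7, which are also high in Nos1 (r = 0.80).

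Genes whose levels ran most like those of Nos1 and Ass1 over the 9 rats were sought among 10470 probe sets with 1 gene symbol and a mean of at least 6 in the adenomas, as a description with no test. Arrb1, a beta-arrestin, stood nearest to Nos1 with r = 0.98, followed by Fbxo34, Foxn3, Scarb1 and Smad6 (r = 0.97 to 0.98). Scarb1 encodes a receptor that takes up cholesterol from lipoproteins, and Smad6 an inhibitor of BMP signalling. Of the candidates, 18.0% had a correlation with Nos1 at least as high as that of Ass1, which had rank 1882, and Arg1 had rank 609. Nearest to Ass1 were Nudt4 and Got1, with r of 0.98 and 0.97, then Spata13, Filip1 and Ints2 (r = 0.96 each). Got1 is the cytosolic aspartate aminotransferase, and aspartate is also a substrate of Ass1. Whether Got1 supplies Ass1 was not tested. Over the 2 rats of 7 or 8 months, Got1 was 1.14 log2 units above wild type, against 2.17 over all rats. For Ass1, Nos1 had rank 1161, with 11.1% of candidates at least as high.

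The age of the mutant rats ran from 7 to 12 months, and Ass1 was lowest in the youngest. These ages are those of the sample labels, and the study's text instead states a common age for all mutant rats, younger than most of the labels give. Ass1 was at 10.84 in the rat of 7 months and 11.55 in the rat of 8 months, against 12.28 to 13.01 in the 7 rats of 10 to 12 months. Its slope was 0.32 log2 units per month (standard error 0.061, unadjusted p = 0.000349 from limma), which did not pass the adjustment over all probe sets (adjusted p = 0.136). Among all probe sets a single one passed the adjusted test, 0.00342%, with a falling level, and 4.51% rose at an unadjusted p under 0.05. The slope rested on the youngest rats, since it was 0.054 per month in the 7 rats of 10 to 12 months alone. The rats of 7 and 8 months (rats 4 and 6) each gave a single lesion, as did rats 7 and 8, both of 12 months. Over the 2 rats of 7 or 8 months, Ass1 was 2.52 log2 units above wild type, Nos1 3.96 and Arg1 0.60. The slope of Nos1 was 0.075 per month (adjusted p = 0.697 from limma) and that of Arg1 was 0.21 (adjusted p = 0.512 from limma), and both turned negative in the rats of 10 to 12 months alone (−0.12 and −0.093). With the line on age removed from both genes, Nos1 and Ass1 gave r = 0.72 (permutation p = 0.0286, approximate for such deviations). Over the 7 rats of 10 to 12 months alone r was 0.58 (exact permutation p = 0.175). Both settings were added after the values were seen.

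**Figure D4:**
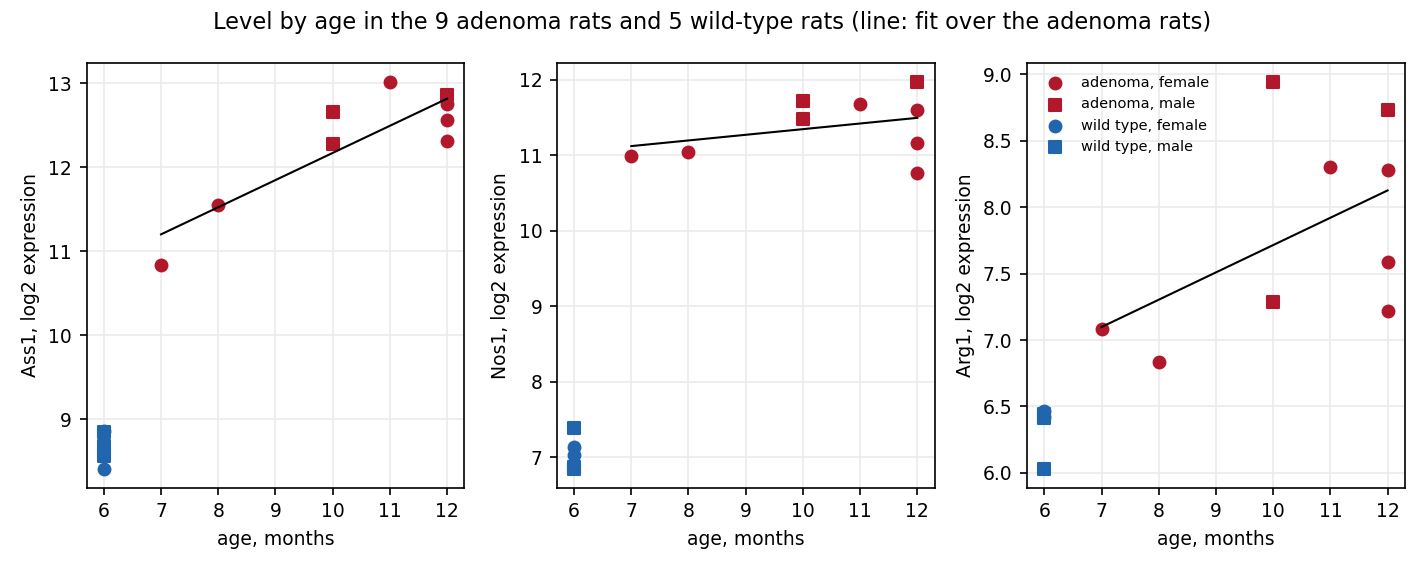
Log2 expression of Ass1, Nos1 and Arg1 by age in months in 9 adenoma rats (red, lesions averaged) and 5 wild-type rats (blue), circles for females and squares for males, with the straight line fitted over the adenoma rats. Ass1 is lowest at 7 and 8 months and lies between 12.28 and 13.01 from 10 months on.

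Between the sexes, no member passed the adjusted test in the adenomas. Nos1 was at 11.21 ± 0.36 in the 6 female rats and 11.72 ± 0.24 in the 3 male rats (female minus male −0.51, adjusted p = 0.611 from limma). Arg1 was at 7.55 ± 0.62 in females and 8.32 ± 0.90 in males (female minus male −0.77, adjusted p = 0.648 from limma). Of all probe sets, 0% passed, and 8.01% had an unadjusted p under 0.05. All 3 males had sample numbers with the prefix 08, which 2 of the 6 females shared. With the prefix as a block, the Nos1 difference between the sexes was −0.39. The adenoma difference from wild type was then compared between the sexes in 1 model, and no member differed past the threshold, where 0% of all probe sets passed and 6.78% had an unadjusted p under 0.05. The Odc1 difference was 0.26 in females and 1.12 in males (interaction −0.86, adjusted p = 0.75 from limma), with wild-type pituitary 5 a female. Within the prefixes the adenomas stood above wild type by 3.69 and 3.59 for Ass1, 4.63 and 4.01 for Nos1, and 1.65 and 1.17 for Arg1, with prefix 08 given before 09.

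Other genes of the pathway were described by lists around the 10 enzymes. Of 62 measured genes, 13 rose and 2 fell at an adjusted p under 0.05 in limma. Over all probe sets 8.49% were higher and 9.06% lower, and with dim probe sets left out 2630 of 17594 were higher and 2292 lower. The lists were chosen with earlier results of these data known, so nothing is read from this count or from those of the single lists. For the same reason the adjusted p-values of list genes, here and below, are a description and not independent support. Of 5 measured genes of tetrahydrobiopterin, the cofactor of all 3 synthases, Gch1, its rate-limiting enzyme, rose by 1.41 (adjusted p = 0.012) and Spr, its last enzyme, by 0.75 (adjusted p = 0.0088), while Gchfr, the protein that mediates feedback inhibition of Gch1, fell by 0.54 (adjusted p = 0.0143). The median over this list was 0.62. Of 10 measured genes listed for citrulline, ornithine and aspartate, Got1 rose by 2.17 (standard error 0.307, adjusted p = 0.000394) and Slc25a15, the mitochondrial ornithine carrier, by 0.57 (adjusted p = 0.00512). Got1 was at 10.62 to 12.72 in the adenoma rats and 9.00 to 10.09 in wild type, with no overlap. The median over those genes was 0.16, and Otc and Cps1, which make citrulline in liver mitochondria, were dim at log2 means of 3.87 and 5.07 in the adenomas. Of 6 genes of arginine transport, Slc3a2, the heavy chain that carries several amino acid transporters to the membrane, rose by 0.81 (adjusted p = 0.00331), with a list median of 0.47.

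Downstream of nitric oxide, 1 of 8 measured genes of its receptor and of cyclic GMP passed the test, where 17.5% of all probe sets did in either direction. Gucy1a2, an alpha subunit of soluble guanylate cyclase, rose by 1.42 (adjusted p = 0.00629 from limma). It lay at 7.19 to 9.11 in the adenoma rats and 6.41 to 7.01 in wild type, without overlap. The usual alpha subunit Gucy1a1 had a difference of −0.40 (adjusted p = 0.146 from limma) and the beta subunit Gucy1b1 of 0.10, and the list median was −0.034. Of 10 measured binding partners of the synthases, only Calm3, a calmodulin gene, passed the test, beside the same 17.5% of all probe sets. Calm3 rose by 0.49 (adjusted p = 0.00463 from limma). Of 11 genes of polyamine metabolism, which include the antizymes and the antizyme inhibitor that regulate Odc1, 4 rose and 1 fell, with a median of 0.29, beside 8.49% of all probe sets higher and 9.06% lower. The antizyme gene Oaz2 was among those that rose, by 0.29 (adjusted p = 0.0362 from limma). Dhps, which modifies the factor eIF5A with spermidine, rose by 1.00 (adjusted p = 0.00834 from limma), Srm, spermidine synthase, by 0.91 (adjusted p = 0.0158 from limma) and Dohh, the next enzyme on eIF5A, by 0.31 (adjusted p = 0.0393 from limma). Sms, spermine synthase, fell by 0.43 (adjusted p = 0.0417 from limma), and the calls of Sms and Dohh were lost in 15 and 12 of 27 alternative settings. In the lists of arginine methylation (8 measured) and of creatine and agmatine (4 measured), Prmt3 rose by 0.91 (adjusted p = 0.00143 from limma) and Gamt, the last enzyme of creatine synthesis, by 1.11 (adjusted p = 0.0037 from limma).

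**Figure D5:**
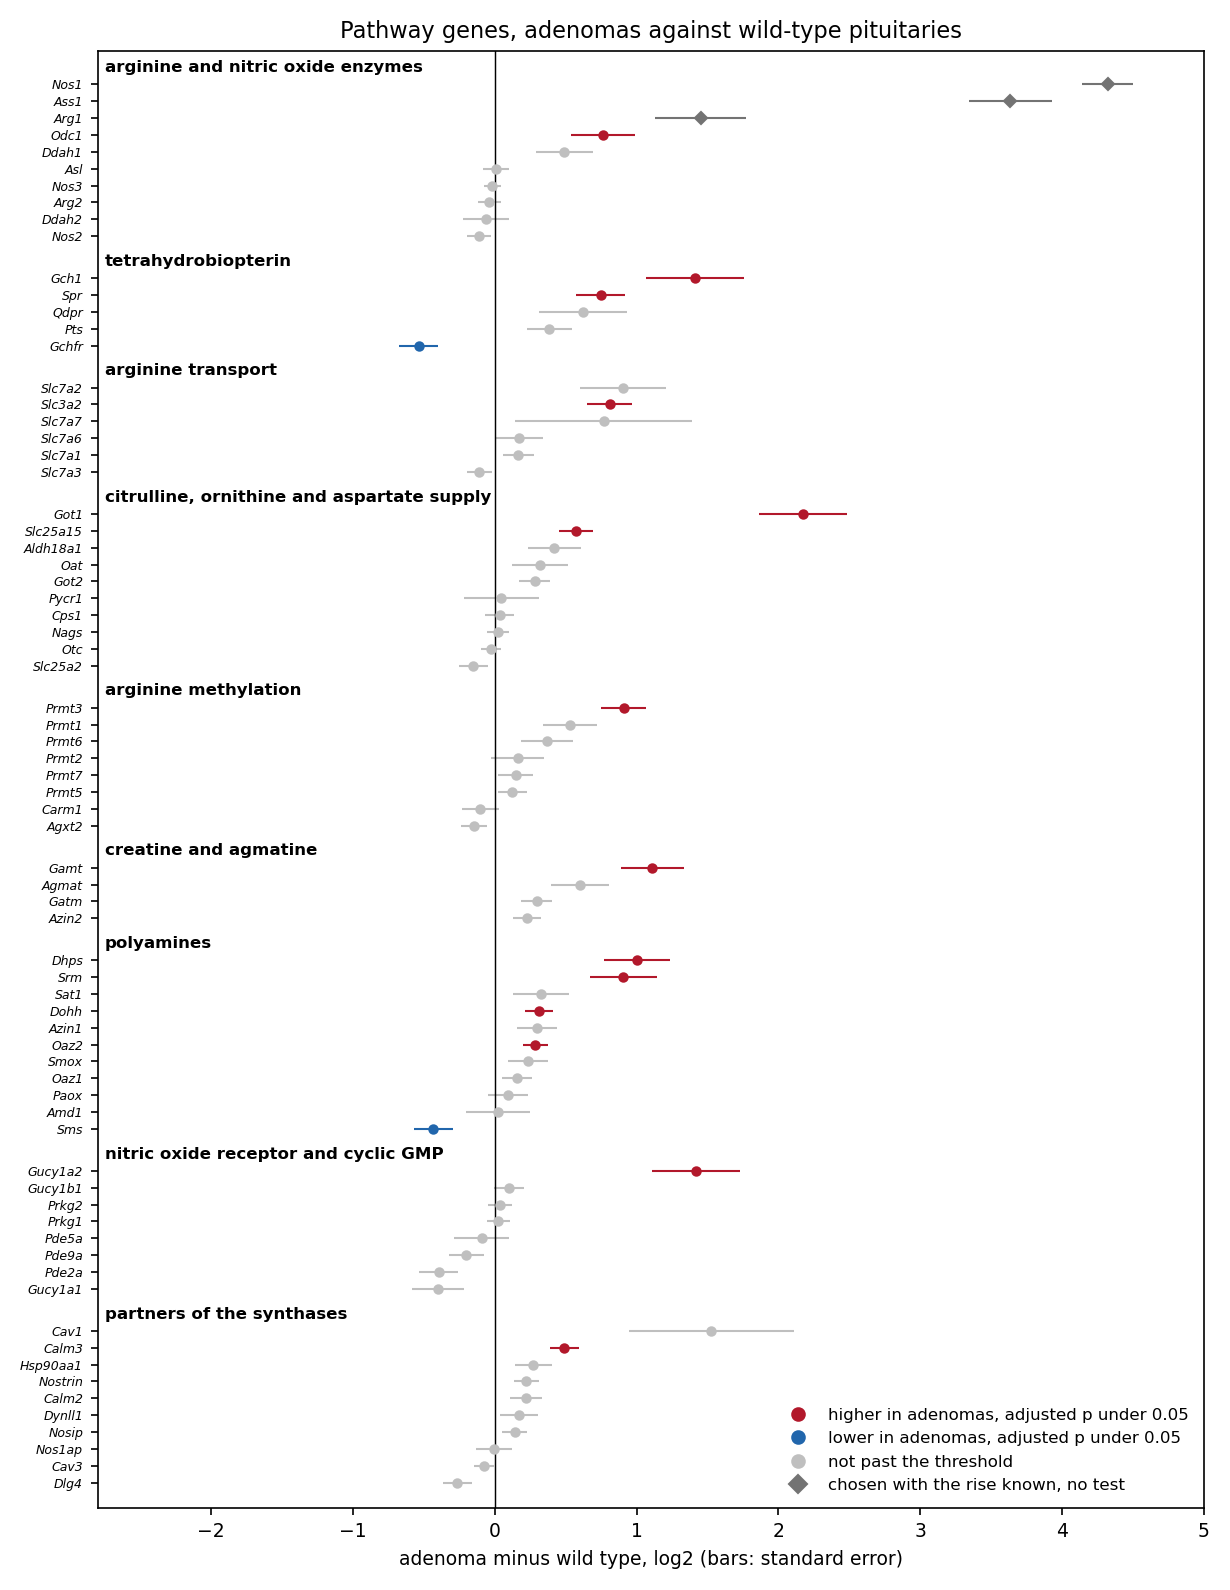
Log2 difference of adenomas minus wild-type pituitaries with its standard error for each measured gene, grouped by role, red for higher and blue for lower at an adjusted p under 0.05, pale grey for genes not past it, and dark diamonds for the 3 enzymes chosen with their rise known. Nos1 (4.32) and Ass1 (3.64) stand farthest to the right, followed by Got1 (2.17).

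The adenomas carried the gonadotroph marker Cga, higher by 0.91 (adjusted p = 0.000109 from limma), and Gnrhr, higher by 1.40 (adjusted p = 0.0036 from limma), while the hormone subunits Lhb and Fshb were lower (−2.24 and −2.38). Somatotroph markers were lower in 4 of 4, folliculostellate markers in 4 of 6 and corticotroph and melanotroph markers in 2 of 3, with Pomc at −3.75 and Tbx19 at −2.07, and of 3 lactotroph markers none passed the test. Beside these counts and those that follow, 8.49% of all probe sets were higher and 9.06% lower, 17.5% in either direction. The lactotroph marker Prl was at 13.77 in the adenomas and 13.69 in wild type, near the highest array value of 14.09. A change of Prl could therefore be compressed. The other lactotroph markers Drd2 and Esr1 had differences of −0.88 (adjusted p = 0.0609 from limma) and −0.098. Of 12 neuronal markers 2 were higher and 3 lower, with a summed linear level of 4850 to 7033 in the adenoma rats and 3914 to 5164 in wild type. The higher ones were Nefh and Slc17a6 (9.98 in the adenomas, 7.11 in wild type), and the lower ones Oxt, Syn1 and Map2. Bright genes such as Snap25 (11.17 and 10.78, not past the threshold) weigh most in this sum, so it does not measure neuronal content. Of 5 measured markers of posterior lobe pituicytes, none was higher and 3 were lower. These genes do not mark the nerve endings of that lobe. Of 11 endothelial markers, 3 were higher and none lower, with a summed level of 1552 to 3006 in the adenoma rats and 1668 to 2537 in wild type. The part of these shifts in the levels of Nos1 and Nos3 was not tested. Cdkn1b, the mutated gene, was at 9.23 ± 0.17 in the adenomas and 8.91 ± 0.19 in wild type, so its mRNA was present in both groups and does not check the genotype.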

How the data were processed

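RNA of 16 adenoma lesions and 5 wild-type pituitaries was hybridised to 1 array each. The authors made gene-level values in Affymetrix Expression Console by RMA, with median polish after sketch-quantile normalization, and deposited them as log2 values (2.01 to 14.09, array medians 6.36 to 6.53). RMA sets the arrays' distributions alike and compresses differences of dim or saturated probe sets, and the number of arrays limits precision. Symbols came from the platform annotation. Lesions were averaged by sample number, read as rats (the study gives another number of rats), which left 9 adenoma and 5 wild-type values. limma 3.58.1 in R 4.3.3 was fitted over all 29214 probe sets for group, age, sex and their interaction and was tested on simulated data. Correlations used exact permutations in Python 3.11.15, with p-values approximate where deviations from a mean or a line were permuted.

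The members and gene lists were chosen with earlier results of these data known. The text names every member, the called genes of each list (up to 4 by size), the 5 genes most like Nos1 and Ass1, and Cdkn1b and Gnrhr. Oaz2, Otc, Cps1, Gucy1a1, Gucy1b1 and the marker genes named were chosen after their values were seen. Alternatives were lesions as separate arrays, batch terms, sex, age, filters, scalings and each rat left out. Promoter windows were RefSeq's (GRCr8).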

Additional observations from a re-analysis of the deposited data

Results flagged for a closer look

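In each group of 9 adenoma rats or 5 wild-type rats, the gap between the most extreme value and its neighbour was set against the group's range (Dixon's criterion), which chance alone passes in about 1 of 20 groups, and 20 groups were examined. The log2 values that passed were 3. Asl was lowest in adenoma rat 7, at 6.75, with the next rat at 6.92. Nos2 was lowest in adenoma rat 8, at 6.15, with the next rat at 6.32. Rats 7 and 8 each gave 1 lesion, as did rats 4 and 6, while the other 5 rats were averages of 2 or 3. A single lesion of rat 3 was lower still in Nos2, at 6.14. The standard deviation of Nos2 was 0.15 within rats and 0.088 between rats. Arg1 was lowest in wild-type pituitary 4, at 6.03, with the next at 6.41. No member's difference from wild type differed between the sexes past an adjusted p of 0.05 in limma's interaction test, in which 0 probe sets passed and 6.78% had an unadjusted p under 0.05.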

How the results depend on the processing

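The higher levels of Ass1 and Nos1 kept their direction in all 27 alternatives (log2 differences 2.52 to 4.08 and 3.96 to 4.63), as did Arg1 (0.60 to 1.84), with the lowest Ass1 and Arg1 values from the adenomas of 7 or 8 months alone. Odc1 lost its call in 9 of 27, namely within prefix 09 (0.66, adjusted p = 0.296), with the replicate block (0.74, 0.0528), sex as a covariate (0.69, 0.0516), the adenomas of 7 or 8 months alone (0.66, 0.755), a further quantile normalization (0.66, 0.0566), and without adenoma rat 3 or wild-type rat 1, 3 or 4 (adjusted p = 0.053 to 0.104). Ddah1 passed with the replicate block (0.68, adjusted p = 0.0143) and with sex as a covariate. The direction of the small differences turned for Asl with the prefix as a block (−0.014), within prefix 08 (−0.17) and without 1 of 4 rats (−0.0021, −0.0039, −0.011 and −0.075, with 0.080 the highest), for Nos2 within prefix 08 (0.079), for Nos3 with centred arrays (0.026), quantile normalization (0.019) and without wild-type rat 1 (0.0033, with −0.037 the lowest with 1 rat left out), for Arg2 within prefix 09 (0.012), with centred arrays (0.0058), quantile normalization (0.044) and without wild-type rat 2 (0.028, lowest −0.081), and for Ddah2 within prefix 09 (0.32) and without wild-type rat 2 (0.051, lowest −0.23). The calls of the 14 list genes named were all lost within prefix 08 and with the adenomas of 7 or 8 months alone, which hold fewer rats. Within prefix 08 some differences were about as large as over all rats or larger (Got1 2.15, Gamt 1.26, Gch1 1.53). Within prefix 09 the calls of Calm3 (0.42, adjusted p = 0.109), Srm (1.12, 0.0614), Sms (−0.45, 0.173) and Gchfr (−0.54, 0.113) were lost, and that of Srm also without wild-type rat 3 (0.80) or 4 (0.75). In adenomas of 10 to 12 months alone the age slopes of Nos1 (−0.12) and Arg1 (−0.093) turned. The count of called probe sets was 5127, and 7704 with lesions as independent arrays, 708 within prefix 08, 133 with adenomas of 7 or 8 months alone, and 3222 to 6886 with 1 rat left out (3222 without wild-type rat 4). For age, 1 probe set passed, and 3 with the prefix as a block, 31 in females alone, 0 in adenomas of 10 to 12 months alone and 0 to 58 with 1 rat left out (58 without rat 2, 0 without rat 4). For sex, 0 passed, and 0 to 11 with 1 rat left out (11 without rat 3, 2 without rat 1). The relation of Nos1 and Ass1 passed 0.05 (unadjusted permutation test) with deviations from the prefix mean (r = 0.75) and from the line on age (0.72). Deviations were permuted freely over all rats, so their p-values are approximate. The relation also passed with centred arrays (0.66) and without rat 8 or 9. With 1 rat left out r ran from 0.59 to 0.78, and it was lowest, 0.58, in the adenomas of 10 to 12 months alone. The settings restricted to adenomas of 10 to 12 months, to females, with sex in the age model and with the line on age were chosen after the values were seen. The causes of these changes were not tested. Replicate numbers do not pair the arrays, since same-numbered arrays had deviations correlated at −0.053 to 0.20 and no lesion was closest to its own number. The replicate block called 4744 probe sets. Other probe sets of a gene could not be tried, as each member had 1.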
